A study of Mus musculus with 6 samples.

Results

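The RNA of 7 nucleic acid sensing genes was followed in RNA sequencing libraries of myeloid cells sorted from mouse tumours by whether they bound the aptamer T1. They are the endosomal receptor genes Tlr3, Tlr7, Tlr8 and Tlr9, their chaperone Unc93b1, and the cytosolic pathway genes Mb21d1 (cGAS) and Tmem173 (STING). The 7 were taken by name from the 35275 gene rows of the deposited tables, where each had 1 row, and all 7 passed the filter on low counts that left 13883 genes. CT26, a colon cancer line of BALB/C mice, was grown under the skin, and tumours that had reached 1800 mm3 were digested, stained and sorted. Of the 6 libraries, 2 came from Ly6G-low T1-binding myeloid cells, 2 from T1-binding Ly6G-high cells and 2 from T1-non-binding Ly6G-high cells, the Ly6G-high cells being labelled PMN. Each group had 1 library from mouse 1 and 1 from mouse 2, so all 6 libraries rest on the tumours of the same 2 animals, which carried no other labelled treatment or allele. The age of the mice, the other markers of the gates, the sort purity and the time between staining and RNA isolation are not given in the sources used here.

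An aptamer is, in most cases, a short folded nucleic acid selected to bind a target, and foreign or misplaced nucleic acids are what these 7 genes serve to detect. In endosomes, TLR3 binds double-stranded RNA and signals through TRIF (gene Ticam1). TLR7 binds single-stranded RNA and its breakdown products, TLR9 binds DNA with unmethylated CpG, and both signal through MyD88, as does TLR8. UNC93B1 carries these receptors out of the endoplasmic reticulum. In the cytosol, cGAS binds double-stranded DNA and makes the messenger cGAMP, which STING detects before TBK1 and IRF3 drive interferon genes. The levels below are RNA levels and do not measure receptor protein, uptake of T1 or a response to it.

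The RefSeq promoters (build GRCm38.p6) of 4 of the 7 members are shown, those with an entry used here, and they were not picked by their results. Tlr7 and Unc93b1 had no such entry, so their promoters were not searched. The promoter of Tmem173 was not searched either and is not reported here. Of the 4 shown, Tlr8 and Tlr9 fell in a comparison below in which Tlr3 and Mb21d1 did not pass the test. Each runs 5′ to 3′ from 250 bases before to 50 bases after the annotated start, 300 bases in all, with capitals for matches to the motifs named after the sequences.
Tlr8 promoter, chrX:167264280-167264579, minus strand: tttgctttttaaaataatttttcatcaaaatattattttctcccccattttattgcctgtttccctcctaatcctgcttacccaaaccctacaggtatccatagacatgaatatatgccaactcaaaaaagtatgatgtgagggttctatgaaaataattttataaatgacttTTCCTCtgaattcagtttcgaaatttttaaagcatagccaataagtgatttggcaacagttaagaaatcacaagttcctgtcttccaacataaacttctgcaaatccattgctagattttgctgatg
Tlr9 promoter, chr9:106222348-106222647, plus strand: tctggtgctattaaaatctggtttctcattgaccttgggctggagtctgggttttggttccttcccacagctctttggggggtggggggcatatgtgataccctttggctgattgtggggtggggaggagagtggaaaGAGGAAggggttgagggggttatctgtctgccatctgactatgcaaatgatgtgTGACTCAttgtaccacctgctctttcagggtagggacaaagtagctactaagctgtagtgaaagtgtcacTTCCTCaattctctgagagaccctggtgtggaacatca
Tlr3 promoter, chr8:45410331-45410630, minus strand: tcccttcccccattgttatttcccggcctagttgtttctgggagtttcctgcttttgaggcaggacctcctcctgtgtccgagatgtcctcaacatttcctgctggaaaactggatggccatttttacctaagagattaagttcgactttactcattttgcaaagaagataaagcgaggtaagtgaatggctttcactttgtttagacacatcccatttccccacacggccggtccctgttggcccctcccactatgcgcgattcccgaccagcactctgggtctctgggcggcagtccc
Mb21d1 promoter, chr9:78443188-78443487, minus strand: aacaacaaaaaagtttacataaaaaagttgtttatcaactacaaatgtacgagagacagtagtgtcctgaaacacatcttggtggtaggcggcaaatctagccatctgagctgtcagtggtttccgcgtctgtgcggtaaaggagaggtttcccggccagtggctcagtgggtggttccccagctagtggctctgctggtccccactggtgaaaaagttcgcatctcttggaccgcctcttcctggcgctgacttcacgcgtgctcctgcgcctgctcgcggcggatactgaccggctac
Searched on both strands were GAGGAA, the core letters bound by the myeloid factor PU.1, and TGANTCA, an AP-1 site. GAGGAA or its reverse complement occurred 1 time in the Tlr8 window, at bases -77 to -72, and 2 times in the Tlr9 window, at -112 to -107 and at 13 to 18 after the start. It did not occur in the Tlr3 or Mb21d1 windows, and 28.3% of 32851 RefSeq promoters of the same length hold it. The Tlr3 window lies wholly inside the GENCODE M21 gene, which begins at chr8:45411080 on the minus strand. Bases before that start were not searched for Tlr3. TGANTCA, held by 7.81% of promoters, matched 1 time, in Tlr9 at -58 to -52, and did not overlap the matches of GAGGAA. These are matches of letters and not measured sites, and their part in the RNA levels was not tested.

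Tlr8 and Tlr7 are neighbours on the X chromosome, on the same strand and 40599 bases apart (Tlr8 chrX:167242696-167264329, Tlr7 chrX:167304929-167330558, mm10, GENCODE M21). Tlr3 spans chr8:45395665-45411080, Tlr9 chr9:106222598-106226883, Mb21d1 chr9:78430526-78443237 and Unc93b1 chr19:3935186-3949340, and all are protein coding. An antisense gene, Gm45542, shares 381 of the 5207 exonic bases of Tlr3, and a pseudogene on the opposite strand, Gm8093, shares 201 of the 4126 of Mb21d1. Whether the libraries kept the strand is not given in the sources used here, so reads in those stretches cannot be assigned with certainty.

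Total counts ran from 23595976 to 28045025 per library. The gates were checked on marker genes, as TMM-scaled CPM, a count divided by the scaled size of its library. Ly6g, the gene of the sorting antigen, had 6 and 1 reads in Ly6G-low cells, 240 and 228 in T1-binding Ly6G-high cells and 506 and 777 in T1-non-binding Ly6G-high cells. A list of 8 genes shared by leukocytes summed to 1091 and 1594 CPM in the Ly6G-low libraries, against 11543 and 8559 CPM in T1-binding Ly6G-high and 16963 and 9539 CPM in T1-non-binding Ly6G-high libraries. The Ly6G-low libraries, labelled myeloid, thus held far less leukocyte RNA than the others, with none of the 8 genes at 0. The 7 macrophage markers summed to 1363 and 2734 CPM in Ly6G-low, 8422 and 8995 CPM in T1-binding Ly6G-high and 4009 and 3977 CPM in T1-non-binding Ly6G-high libraries. The 7 neutrophil markers summed to 238 and 103 CPM in Ly6G-low, 12836 and 9064 CPM in T1-binding Ly6G-high and 37680 and 24871 CPM in T1-non-binding Ly6G-high libraries. Macrophage genes were therefore present in all 3 gates, the PMN gates included. In such bulk libraries, fewer cells of a type and less RNA per cell cannot be told apart.

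Levels between genes were compared as the deposited FPKM, which divide by gene length. Unc93b1, the chaperone, had the highest FPKM of the 7 in every library, and Tlr9 the lowest. Unc93b1 had 52.6 and 115.8 FPKM in Ly6G-low cells, 217.6 and 318.8 FPKM in T1-binding Ly6G-high cells and 122.1 and 166.8 FPKM in T1-non-binding Ly6G-high cells. Tmem173 came next with 33.3 and 38.7 FPKM in Ly6G-low, 30.4 and 44.9 FPKM in T1-binding Ly6G-high and 19.0 and 28.3 FPKM in T1-non-binding Ly6G-high cells. The adaptor STING was thus transcribed in all 3 groups, with Ly6G-low and T1-binding Ly6G-high values that overlapped on this scale. Tlr8 had 2.36 and 5.48 FPKM in Ly6G-low, 12.0 and 13.1 FPKM in T1-binding Ly6G-high and 6.53 and 6.53 FPKM in T1-non-binding Ly6G-high cells. Tlr7 had 2.38 and 4.31 FPKM in Ly6G-low, 11.8 and 11.6 FPKM in T1-binding Ly6G-high and 5.09 and 5.46 FPKM in T1-non-binding Ly6G-high cells. Tlr7 and Tlr8 were highest in both libraries of the T1-binding Ly6G-high cells and lowest in those of the Ly6G-low cells.

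Tlr3, the receptor for double-stranded RNA, had 2.60 and 2.61 FPKM in Ly6G-low cells, 2.24 and 2.56 FPKM in T1-binding Ly6G-high cells and 1.16 and 1.53 FPKM in T1-non-binding Ly6G-high cells. Mb21d1, the DNA sensor upstream of STING, had 3.20 and 3.73 FPKM in Ly6G-low, 1.73 and 3.02 FPKM in T1-binding Ly6G-high and 1.43 and 1.92 FPKM in T1-non-binding Ly6G-high cells. Both were low in every group and had their lowest mean in the T1-non-binding cells on this scale, though the Ly6G-high groups overlapped for Mb21d1. Tlr9, the CpG DNA receptor, had 0.134 and 0.461 FPKM in Ly6G-low, 0.496 and 1.26 FPKM in T1-binding Ly6G-high and 0.425 and 0.513 FPKM in T1-non-binding Ly6G-high cells. It was counted with 11 and 40 reads in Ly6G-low, 48 and 106 in T1-binding Ly6G-high and 35 and 50 in T1-non-binding Ly6G-high libraries. Its values rest on the fewest reads of the 7, and its Ly6G-high groups overlapped.

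The order of the members by mean FPKM in the T1-binding Ly6G-high cells was Unc93b1, Tmem173, Tlr8, Tlr7, Tlr3, Mb21d1 and Tlr9. There, Tlr3 (2.40 ± 0.23 FPKM) and Mb21d1 (2.38 ± 0.91 FPKM) did not differ beyond their spread (SD, n = 2), and they did not in the T1-non-binding cells, where Mb21d1 came before Tlr3. In the Ly6G-low cells, Tlr8 (3.92 ± 2.20 FPKM), Mb21d1 (3.47 ± 0.37 FPKM), Tlr7 (3.34 ± 1.36 FPKM) and Tlr3 (2.60 ± 0.011 FPKM) followed each other in this order, and no neighbours among them differed beyond their spread (SD, n = 2). The ratio of Tlr7 to Tlr3 FPKM was 0.918 and 1.65 in Ly6G-low, 5.24 and 4.54 in T1-binding Ly6G-high and 4.39 and 3.56 in T1-non-binding Ly6G-high cells. The ratio of Tlr8 to Tlr3 FPKM was 0.909 and 2.10 in Ly6G-low, 5.36 and 5.12 in T1-binding Ly6G-high and 5.62 and 4.26 in T1-non-binding Ly6G-high cells. Both ratios were lower in the 2 Ly6G-low libraries than in the other 4. Within the Ly6G-low cells they were just under 1 in the library of mouse 1 and above it in that of mouse 2. The ratio of Tlr7 to Tlr8 FPKM stayed between 0.781 and 1.01 in all 6 libraries.

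**Figure D1:**
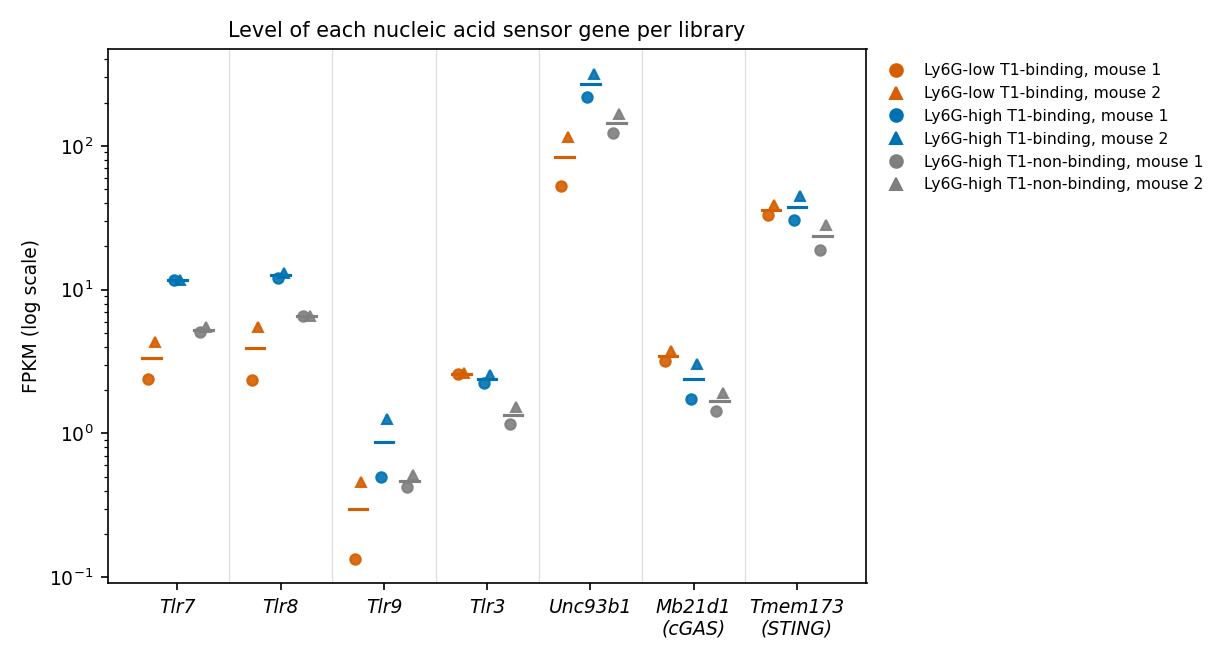
Deposited FPKM (log scale) of the 7 sensor genes in each of the 6 libraries, with circles for mouse 1, triangles for mouse 2 and bars for group means. Unc93b1 is highest throughout, Tlr7 and Tlr8 lie at 11.6 to 13.1 FPKM in T1-binding Ly6G-high cells against 5.09 to 6.53 FPKM in T1-non-binding cells, and Tlr9 is lowest.

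The first comparison was between Ly6G-high cells that bound T1 and Ly6G-high cells that did not. No member passed edgeR's quasi-likelihood test with Benjamini-Hochberg adjustment at 0.05, and neither did any other of the 13883 genes (0%), while 1623 genes (11.7%) had an unadjusted p under 0.05 and DESeq2 called 203 genes (1.46%), no member among them. All 7 members had a positive log2 fold change, with a median of 0.60, against -0.05 over all tested genes. Both T1-binding libraries lay above both T1-non-binding libraries for 5 of 7 members, against 20.1% of all tested genes.

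Tlr7 had 53.4 and 45.2 CPM in T1-binding cells and 30.4 and 23.2 CPM in T1-non-binding cells, a log2 fold change of 0.88 ± 0.30 (SE, edgeR adjusted p = 0.387). Tlr8 averaged 46.5 ± 2.32 CPM in T1-binding cells and 29.4 ± 6.99 CPM in T1-non-binding cells (SD, n = 2 each), a log2 fold change of 0.66 ± 0.37 (SE, edgeR adjusted p = 0.510). The libraries did not overlap for either receptor, and in both mice the T1-binding library was the higher one, by 0.80 and 0.95 on the log2 scale for Tlr7 and by 0.48 and 0.86 for Tlr8. Unc93b1 averaged 647 ± 102 CPM in T1-binding cells and 418 ± 8.28 CPM in T1-non-binding cells (SD, n = 2 each), a log2 fold change of 0.63 ± 0.38 (SE, edgeR adjusted p = 0.531), again without overlap. The chaperone was thus higher in both T1-binding libraries, as were Tlr7 and Tlr8. Tlr3 averaged 11.2 ± 0.194 CPM in T1-binding cells and 7.47 ± 0.333 CPM in T1-non-binding cells (SD, n = 2 each), a log2 fold change of 0.58 ± 0.18 (SE, edgeR adjusted p = 0.385). Tmem173 had 81.7 and 103 CPM in T1-binding cells and 67.1 and 70.9 CPM in T1-non-binding cells, a log2 fold change of 0.42 ± 0.19 (SE, edgeR adjusted p = 0.443). Neither gene overlapped between the gates, and Tlr3 differed by nearly the same amount in mouse 1 (0.53) and mouse 2 (0.58). Mb21d1 had 8.17 and 12.2 CPM in T1-binding cells and 8.87 and 8.48 CPM in T1-non-binding cells, a difference of 0.23 ± 0.24 on the log2 scale (SE, edgeR adjusted p = 0.733). Tlr9 had 2.01 and 4.37 CPM in T1-binding cells and 2.27 and 1.94 CPM in T1-non-binding cells, a difference of 0.60 ± 0.59 on the log2 scale (SE, edgeR adjusted p = 0.708). For both DNA sensors the groups overlapped, the T1-binding library of mouse 1 being below its T1-non-binding partner.

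Each tumour gave both Ly6G-high gates, so the mouse pairs these libraries. A model with the mouse as a replicate block on all 6 libraries still called 0 genes. The same block on the 4 Ly6G-high libraries alone, chosen after seeing the data and left with 1 residual degree of freedom, called 3778 of 13419 genes (28.2%), 13.6% as higher. It called 5 members higher in T1-binding cells, with edgeR adjusted p-values of 0.00772 for Tlr3, 5.2e-08 for Tlr7, 6.3e-06 for Tlr8, 6.7e-07 for Unc93b1 and 0.000421 for Tmem173, and did not call Tlr9 (0.182) or Mb21d1 (0.304). Whether these 5 members differ between the gates thus depends on this choice of model. Macrophage genes moved with the sensors, since all 7 on the list lay above without overlap in T1-binding cells (log2 fold changes of 0.84 to 1.43, median 1.17), and all 7 neutrophil genes lay below (median -1.53). Emr1, the macrophage antigen F4/80, had 338 and 411 CPM in T1-binding cells and 182 and 184 CPM in T1-non-binding cells. The part of such a difference in cell makeup in the values of the sensors was not tested.

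Of the other genes of the sensing pathways, 79 were listed by role and 74 were tested; none passed edgeR's test in this comparison, and their median log2 fold change was 0.04. Values for the gene with the smallest p in 6 of the roles were as follows. Lgmn, a lysosomal protease that cuts endosomal receptors, averaged 1313 CPM in T1-binding cells and 618 CPM in T1-non-binding cells. Pld3, a lysosomal exonuclease that degrades single-stranded nucleic acid, averaged 183 CPM in T1-binding and 115 CPM in T1-non-binding cells. Lrrc8c, a subunit of a channel that imports cGAMP, averaged 110 CPM in T1-binding and 62.7 CPM in T1-non-binding cells. The kinase gene Ikbke averaged 43.0 CPM in T1-binding and 24.0 CPM in T1-non-binding cells, and Irf8, a transcription factor of myeloid cells, 159 CPM in T1-binding and 94.9 CPM in T1-non-binding cells. For the targets the leading gene lay on the lower side, the interferon target Isg15 averaging 299 CPM in T1-binding cells against 661 CPM in T1-non-binding cells. None of these 6 genes passed the test, each having an edgeR adjusted p of 0.385. They need not stand for their roles. By role, median log2 fold changes were 0.22 for trafficking, 0.18 for nucleases and 0.19 for genes acting on cGAMP or cGAS. For adaptors and kinases the median was 0.04, for IRF and NF-kB factors -0.12, for targets -0.15 and for other receptors -0.31.

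The next comparison was between the Ly6G-low and the Ly6G-high cells that both bound T1. Tlr7, Tlr8, Tlr9, Unc93b1 and Tmem173 fell in the Ly6G-low cells, and Tlr3 and Mb21d1 did not pass the test. These 5 of 7 stand beside 43% of the 13883 genes called in either direction and 24.3% called lower by edgeR's quasi-likelihood test with Benjamini-Hochberg adjustment at 0.05. The median log2 fold change of the members was -2.08, against 0.03 over all tested genes, and both Ly6G-low libraries lay below both others for 6 of 7 members, against 39.6% of tested genes.

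Tlr7 had 6.65 and 12.1 CPM in the Ly6G-low libraries and 53.4 and 45.2 CPM in the T1-binding Ly6G-high libraries, a 5.25-fold lower level, or -2.39 ± 0.31 on the log2 scale (SE, edgeR adjusted p = 0.00339). Tlr8 averaged 9.68 ± 5.48 CPM in Ly6G-low cells and 46.5 ± 2.32 CPM in T1-binding Ly6G-high cells (SD, n = 2 each), 4.79-fold lower, or -2.26 ± 0.39 on the log2 scale (SE, edgeR adjusted p = 0.00602). The chaperone Unc93b1 averaged 137 ± 73.4 CPM in Ly6G-low cells and 647 ± 102 CPM in T1-binding Ly6G-high cells (SD, n = 2 each), 4.71-fold lower, or -2.24 ± 0.39 on the log2 scale (SE, edgeR adjusted p = 0.00642). The 3 genes thus fell by like factors, and in each the Ly6G-low library of mouse 1 was the lower of the pair. They kept their call in all 16 alternative settings, Tlr7 between -2.97 and -1.80, Tlr8 between -3.08 and -1.68 and Unc93b1 between -3.00 and -1.67.

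Tlr9 averaged 0.745 ± 0.581 CPM in Ly6G-low cells and 3.19 ± 1.67 CPM in T1-binding Ly6G-high cells (SD, n = 2 each), a log2 fold change of -2.08 ± 0.62 (SE, edgeR adjusted p = 0.0338). Its libraries did not overlap, but the call was lost without replicate 1 of the Ly6G-low cells (log2 fold change -1.46, adjusted p = 0.134) and without replicate 2 of the T1-binding Ly6G-high cells (-1.52, adjusted p = 0.111). Tmem173 had 54.9 and 64.3 CPM in Ly6G-low cells and 81.7 and 103 CPM in T1-binding Ly6G-high cells, 1.55-fold lower, or -0.63 ± 0.19 on the log2 scale (SE, edgeR adjusted p = 0.0325). That call was lost without any 1 of these 4 libraries, with adjusted p-values of 0.0565 to 0.215. Tlr3 averaged 8.10 ± 0.070 CPM in Ly6G-low cells and 11.2 ± 0.194 CPM in T1-binding Ly6G-high cells (SD, n = 2 each), which did not overlap but had an edgeR adjusted p of 0.0734. Mb21d1 averaged 10.1 ± 1.13 CPM in Ly6G-low cells and 10.2 ± 2.84 CPM in T1-binding Ly6G-high cells (SD, n = 2 each) and had a log2 fold change of -0.01 ± 0.24 (SE, edgeR adjusted p = 0.971).

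The scale matters for the members near the threshold. TMM scaling factors were 1.40 and 1.39 in the Ly6G-low libraries and 0.858 and 1.00 in the T1-binding Ly6G-high libraries, which is why Tlr3 lies lower in CPM and higher in FPKM in Ly6G-low cells. With library totals in place of TMM, the median of all genes moved from 0.03 to 0.61, Tlr3 stood at 0.12 and Mb21d1 at 0.55, neither called, Tmem173 at -0.06 (adjusted p = 0.852) and Tlr9 at -1.55 (adjusted p = 0.0736). Tlr7, Tlr8 and Unc93b1 were still called lower, as 3 of 7 members. Of the 13883 genes, 53.6% were called in either direction with library totals, 5208 higher and 2235 lower.

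**Figure D2:**
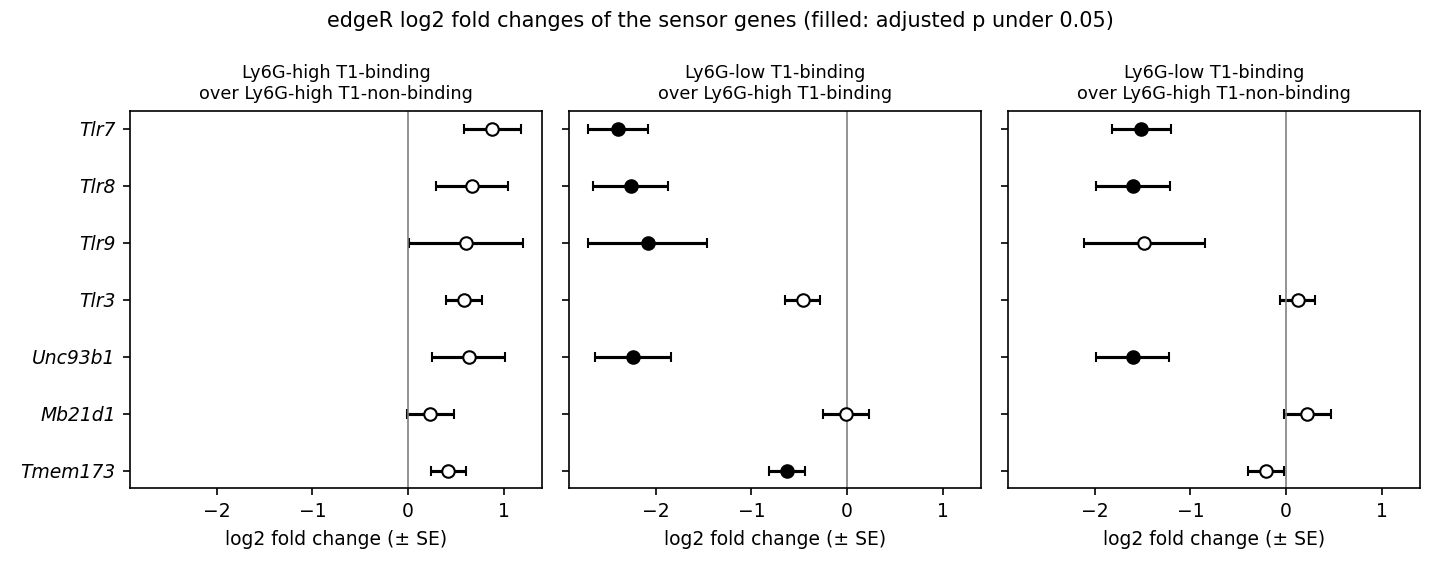
Log2 fold changes of the 7 sensor genes with their standard errors in the 3 comparisons, from edgeR on all 6 libraries, with filled points for an adjusted p under 0.05. Tlr7, Tlr8 and Unc93b1 lie between -2.39 and -2.24 for Ly6G-low over T1-binding Ly6G-high cells, and Mb21d1 lies at -0.01.

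Leukocyte RNA moved with these results, since all 8 leukocyte genes fell in Ly6G-low cells (median log2 fold change -2.73), as did all 7 macrophage genes (median -2.01) and all 7 neutrophil genes (median -6.19). Ptprc, the gene of the leukocyte antigen CD45, had 65.8 and 115 CPM in the Ly6G-low libraries and 1020 and 659 CPM in the T1-binding Ly6G-high libraries. Krt18, a keratin gene of epithelial cells, rose to 1205 and 971 reads in Ly6G-low cells, against 263 and 442 reads in T1-binding Ly6G-high cells (log2 fold change 1.15, edgeR adjusted p = 0.0164), a call lost without replicate 1 of the Ly6G-low cells (0.94, adjusted p = 0.101) or replicate 1 of the T1-binding Ly6G-high cells (0.83, adjusted p = 0.0801). The 6 tumour or epithelial genes summed to 132 and 116 CPM in Ly6G-low against 76.1 and 80.0 CPM in T1-binding Ly6G-high libraries, with Cldn7 at 0 in 1 of the T1-binding Ly6G-high ones. They did not move as one list, since of the 4 tested 1 rose, 1 fell and 2 did not pass the test, with a median log2 fold change of 0.20. Krt8 and Cdh1 were chosen after their values were seen. Krt8, the keratin that pairs with Krt18, made up most of the Ly6G-low sum, with 84.3 ± 1.78 CPM in Ly6G-low cells and 30.4 ± 20.1 CPM in T1-binding Ly6G-high cells (SD, n = 2 each; edgeR adjusted p = 0.0559). Cdh1, the epithelial adhesion gene E-cadherin, went the other way, with 7.96 and 5.14 CPM in Ly6G-low cells and 47.5 and 16.9 CPM in T1-binding Ly6G-high cells (log2 fold change -2.30, edgeR adjusted p = 0.0305). That call was lost without either of the Ly6G-low libraries or replicate 1 of the T1-binding Ly6G-high cells (-2.65 to -1.37, adjusted p-values of 0.0883 to 0.165). The 6 fibroblast or endothelial genes summed to 615 and 431 CPM in Ly6G-low against 256 and 405 CPM in T1-binding Ly6G-high libraries. Of these 6, 4 lay above without overlap and 1 below, with a median log2 fold change of 0.84. By the test, 1 rose, 1 fell and 4 did not pass. The part of this makeup in the sensor values was not tested.

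As a description of how the members stand to leukocyte RNA, the reads of each were set against the summed reads of the 8 leukocyte genes of the same library. Tlr7 made up 0.610% and 0.759% of that sum in Ly6G-low, 0.462% and 0.528% in T1-binding Ly6G-high and 0.179% and 0.243% in T1-non-binding Ly6G-high cells. Tlr8 made up 0.532% and 0.850% in Ly6G-low, 0.417% and 0.524% in T1-binding Ly6G-high and 0.202% and 0.256% in T1-non-binding Ly6G-high cells. On this scale Tlr7 and Tlr8 were not lower in Ly6G-low cells, unlike their CPM. Mb21d1 made up 0.852% and 0.683% in Ly6G-low, 0.0708% and 0.142% in T1-binding Ly6G-high and 0.0523% and 0.0889% in T1-non-binding Ly6G-high cells. Tlr3 made up 0.738% and 0.511% in Ly6G-low, 0.0980% and 0.129% in T1-binding Ly6G-high and 0.0454% and 0.0758% in T1-non-binding Ly6G-high cells. Both stood several-fold higher against leukocyte reads in the Ly6G-low libraries than in the other 4, as did Tmem173. Tmem173 made up 5.03% and 4.03% in Ly6G-low, 0.707% and 1.20% in T1-binding Ly6G-high and 0.395% and 0.743% in T1-non-binding Ly6G-high cells. The divisor itself was far lower in the Ly6G-low libraries, at 1091 and 1594 CPM against 11543 and 8559 CPM in T1-binding Ly6G-high ones. Any gene of unchanged CPM, as Mb21d1 was at a mean of 10.1 and 10.2 CPM, therefore stands higher on this scale. The higher shares are thus not a trait of these 3 genes. Unc93b1 and Tlr9 overlapped between the T1-binding groups. Which cells of the Ly6G-low gate carried these RNAs cannot be told from bulk libraries.

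**Figure D3:**
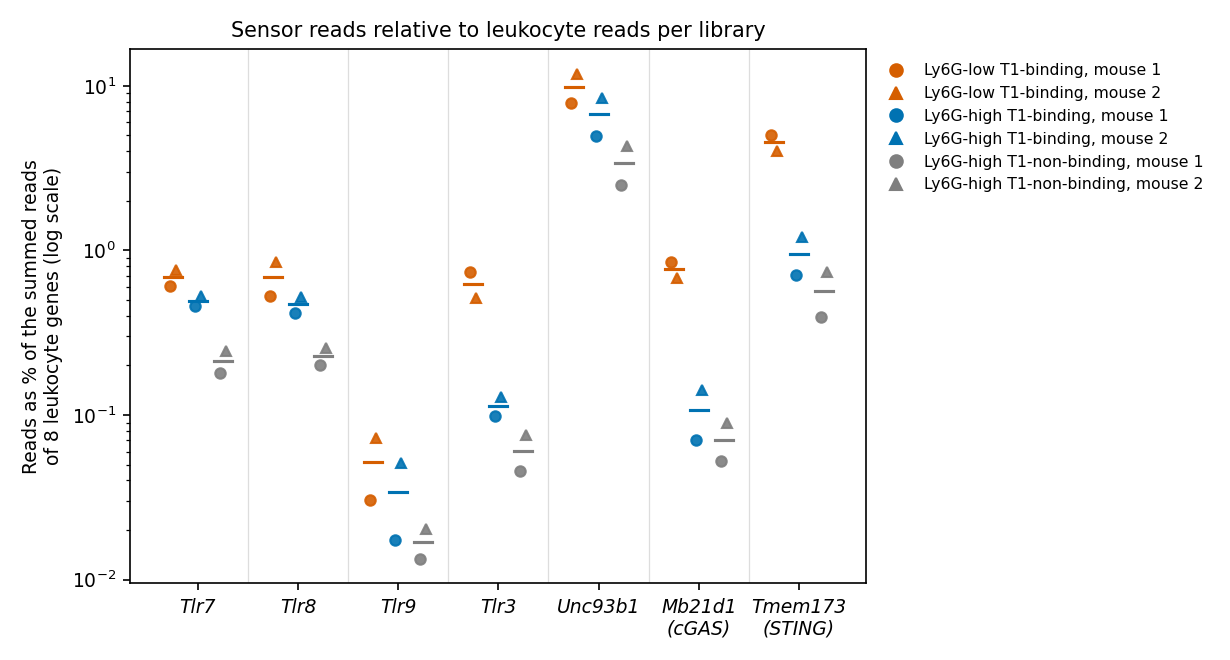
Reads of each sensor gene as a percentage of the summed reads of 8 leukocyte genes in the same library (log scale), with circles for mouse 1, triangles for mouse 2 and bars for group means. Tlr3, Mb21d1 and Tmem173 stand higher in the Ly6G-low libraries, with Mb21d1 at 0.852% and 0.683% against at most 0.142% in the others. The leukocyte sum is itself far lower in the Ly6G-low libraries, so a gene of unchanged CPM stands higher there.

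The other pathway genes were mostly lower in the Ly6G-low cells too. Of 74 tested, 54 fell, 2 rose and 18 did not pass the test, with a median log2 fold change of -1.46, against 24.3% of all tested genes called lower (3367 genes, with 2604 higher) and a median of 0.03. Against these 56 calls, a fit without replicate 1 of the Ly6G-low cells called 30 pathway genes and one without replicate 1 of the T1-binding Ly6G-high cells called 37. Among 15 other receptors and effectors, 10 fell and 1 rose. Dhx58, a regulator of the RNA helicase sensors, averaged 11.3 CPM in Ly6G-low and 32.8 CPM in T1-binding Ly6G-high cells (-1.54). The gene that rose was Dhx9, a nuclear RNA helicase, with a log2 fold change of 1.11, a call lost without replicate 2 of the Ly6G-low cells (0.85, adjusted p = 0.0864) or replicate 1 of the T1-binding Ly6G-high cells (0.86, adjusted p = 0.0605). Tlr13, the mouse endosomal receptor of bacterial ribosomal RNA, was chosen after its values were seen, since its FPKM were above those of Tlr7 and Tlr8 in every library. It had 8.13 and 13.3 FPKM in Ly6G-low, 86.6 and 65.6 FPKM in T1-binding Ly6G-high and 107 and 77.8 FPKM in T1-non-binding Ly6G-high cells, and fell in the Ly6G-low cells by 3.43 on the log2 scale against the T1-binding Ly6G-high cells (edgeR adjusted p = 0.00342).

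Among 11 trafficking and protease genes, 7 fell, led by Cd14, a coreceptor of Toll-like receptors (log2 fold change -3.57), and Slc29a3, a lysosomal nucleoside transporter (-1.84). Among 11 nucleases, 8 fell, led by Samhd1, which depletes deoxynucleotides (-2.36), and Dnase1l3, a secreted DNase (-2.84, at 0.529 CPM in Ly6G-low cells and 3.84 CPM in T1-binding Ly6G-high cells). Of 6 genes acting on cGAMP or cGAS, 3 fell, among them Enpp1, which degrades cGAMP (-1.78), and Lrrc8c (-0.95). The 1 that rose was Banf1, a chromatin protein that restrains cGAS (0.83). With library totals in place of TMM, Lrrc8c was not called (-0.37, edgeR adjusted p = 0.175). With RLE scaling factors, Banf1 was not called (0.79, edgeR adjusted p = 0.0514). Lrrc8c was not called without replicate 1 of the Ly6G-low cells (-0.81, adjusted p = 0.0880) or of the T1-binding Ly6G-high cells (-0.87, adjusted p = 0.0549), and Banf1 was not called without either of the Ly6G-low libraries or replicate 1 of the T1-binding Ly6G-high cells (0.55 to 0.86, adjusted p-values of 0.146 to 0.231).

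Of 12 adaptors and kinases, 9 fell. Myd88, the adaptor of Tlr7, Tlr8 and Tlr9, had 19.3 and 22.5 FPKM in Ly6G-low cells and 45.9 and 39.1 FPKM in T1-binding Ly6G-high cells (log2 fold change -1.62, edgeR adjusted p = 0.00689). Ticam1, the adaptor of Tlr3, had 3.60 and 4.49 FPKM in Ly6G-low cells and 4.01 and 5.69 FPKM in T1-binding Ly6G-high cells (log2 fold change -0.83, edgeR adjusted p = 0.0215), so both adaptors fell, Ticam1 with overlapping FPKM. The kinase genes Ikbke and Irak2 were 2.82-fold and 8.60-fold lower, and Tbk1, the kinase after STING, was 2.01-fold lower. With library totals in place of TMM, Ticam1 (-0.26, edgeR adjusted p = 0.449) and Tbk1 (-0.40, edgeR adjusted p = 0.186) were not called. Without replicate 1 of the Ly6G-low cells, Myd88 (-1.51, adjusted p = 0.0572), Ticam1 (-0.68, adjusted p = 0.145) and Tbk1 (-0.96, adjusted p = 0.165) were not called. Ticam1 lost its call also without either of the T1-binding Ly6G-high libraries (adjusted p-values of 0.0510 and 0.0580), and Tbk1 without replicate 2 of the Ly6G-low cells (0.0970) or replicate 1 of the T1-binding Ly6G-high cells (0.225). Of 7 IRF and NF-kB factors, 5 fell, among them Irf7 (-2.24) and Irf8 (-2.05), while Irf3, the factor that TBK1 activates, had a log2 fold change of 0.13 and did not pass the test (edgeR adjusted p = 0.560). All 12 tested target genes fell, led by Isg15 (-3.45) and Rsad2 (-3.97). Ifnb1, the interferon gene at the end of these pathways, had 3 and 2 reads in Ly6G-low, 4 and 0 in T1-binding Ly6G-high and 7 and 0 in T1-non-binding Ly6G-high cells, which was too few to be tested, and a count of 0 allows up to 3 reads.

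**Figure D4:**
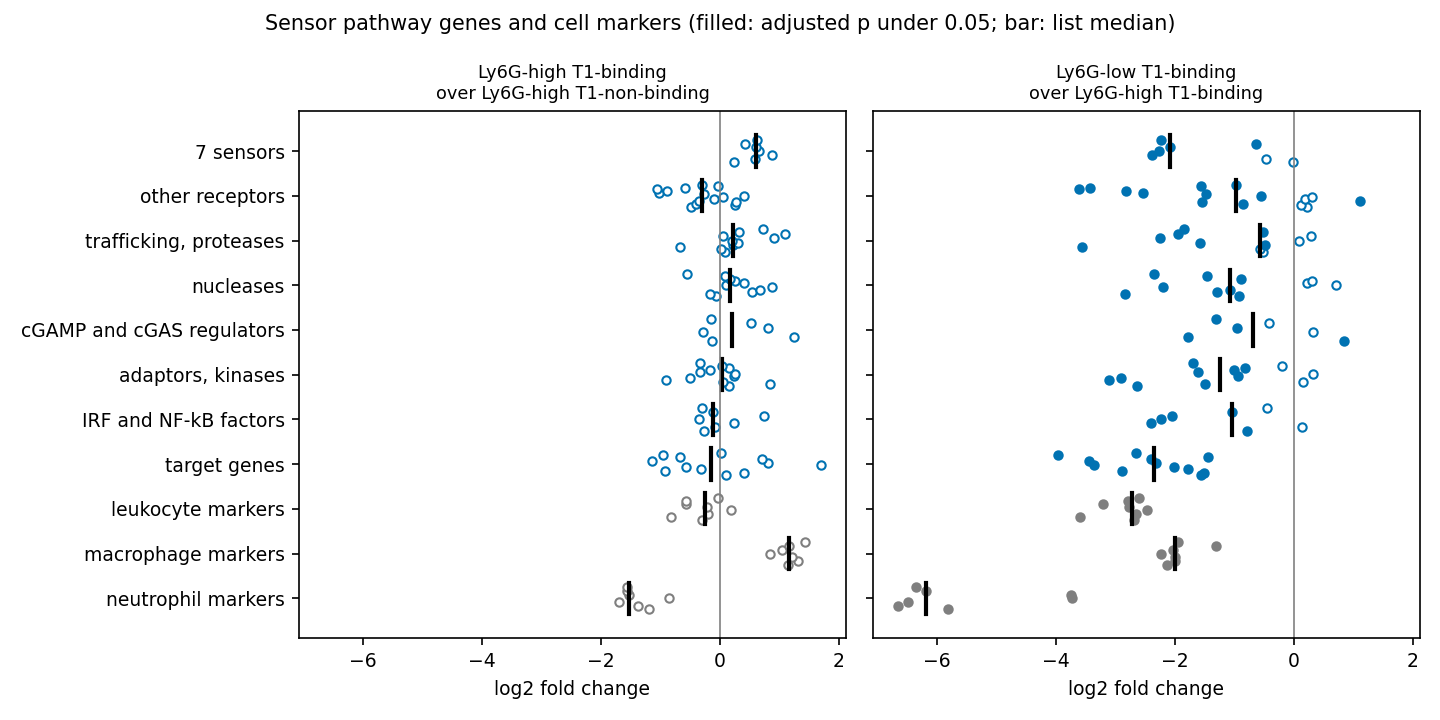
Log2 fold changes of the sensors, of the other pathway genes by role and of marker genes in 2 comparisons, with filled points for an edgeR adjusted p under 0.05 and a bar at each list's median. The sensors centre on 0.60 on the left with no filled point and on -2.08 on the right, where leukocyte markers centre on -2.73 and macrophage markers on -2.01.

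The last comparison, of the Ly6G-low T1-binding cells with the Ly6G-high cells that did not bind T1, shares libraries with both others. Tlr7, Tlr8 and Unc93b1 fell and the other 4 members did not pass the test, beside 39.8% of all genes called and 23.8% called lower. Tlr7 averaged 9.38 ± 3.86 CPM in Ly6G-low cells and 26.8 ± 5.10 CPM in T1-non-binding cells (SD, n = 2 each), 2.85-fold lower, or -1.51 ± 0.30 on the log2 scale (SE, edgeR adjusted p = 0.0114). Tlr8 and Unc93b1 were 3.02-fold and 3.04-fold lower, with edgeR adjusted p-values of 0.0199 and 0.0198. Without replicate 1 of the Ly6G-low cells none of the 3 was called (10.6% of all genes were), at adjusted p-values of 0.0538, 0.0620 and 0.104, and without replicate 1 of the T1-non-binding cells Tlr7 alone was (16.3% of all genes). Tlr9 had a log2 fold change of -1.48 and an edgeR adjusted p of 0.0983, which was 0.0337 with the mouse as a replicate block. Tlr3 (0.12), Mb21d1 (0.22) and Tmem173 (-0.21) had edgeR adjusted p-values of 0.612, 0.479 and 0.376. With library totals, which move the median of all genes from 0.09 to 0.91, Tlr3 (0.95, adjusted p = 0.0189) and Mb21d1 (1.05, adjusted p = 0.0277) were called higher, beside 52.3% of all genes, and the 3 others lost their call, at log2 fold changes of -0.66 for Tlr7, -0.73 for Tlr8 and -0.78 for Unc93b1. Of the 74 pathway genes tested, 47 fell and 1, Dhx9, rose here.

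Across the 6 libraries, the members fell into patterns that are given as a description, since libraries share mice and groups. Pearson's r of log2 CPM was 0.99 between Tlr7 and Tlr8 and 0.99 between Unc93b1 and Tlr8, whereas Mb21d1 had -0.06 with Tlr7 and -0.03 with Tlr8. Among 8105 genes with a mean of at least 10 CPM, the patterns most like that of Unc93b1 were those of Clec4a3 and Tifab, each with r above 0.998, while Cd83 was among the closest to Tlr7 and Mpeg1 among the closest to Tlr8. For Tlr3 these were Vwa5a and Derl2, for Tmem173 Ntpcr and Eng, and for Tlr9 Gbp7 and Tap1, with r of 0.980 to 0.994. Mb21d1 had the least close match, Dpf2 with r = 0.951 and Idi1 with r = 0.945. The 7 marker genes of plasmacytoid dendritic cells, which are rich in Tlr7 and Tlr9, summed to 107 and 95.5 CPM in Ly6G-low and 81.5 and 92.2 CPM in T1-binding Ly6G-high libraries, and to at most 76.5 CPM in T1-non-binding Ly6G-high ones, with Klk1 at 0 in 2 of the 6. That sum was almost all Tcf4, a factor that other cells also express, named after its values were seen, at 93.5 ± 8.47 CPM in Ly6G-low cells, 79.2 ± 8.15 CPM in T1-binding Ly6G-high cells and 66.6 ± 2.24 CPM in T1-non-binding Ly6G-high cells (SD, n = 2 each). Of the 5 tested, none rose and 2 fell in Ly6G-low against T1-binding Ly6G-high cells, with a median log2 fold change of -1.35. Siglech, a surface marker of these cells and 1 of those 2, whose call was lost without either of the Ly6G-low libraries or replicate 1 of the T1-binding Ly6G-high cells (adjusted p-values of 0.111 to 0.320), had 5 and 2 reads in Ly6G-low, 41 and 9 in T1-binding Ly6G-high and 2 and 14 in T1-non-binding Ly6G-high cells. The 5 B cell genes, of another cell type that expresses Tlr9, summed to 4.16 to 28.8 CPM per library.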

How the data were processed

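Libraries of 3 sorted groups, 2 per group, were compared. Whole read counts per gene, not normalized, are the values deposited for each library. The deposited FPKM follow from them, since 14684 genes had a single implied length across libraries (deviation at most 5.4e-12). The submitters' processing notes name mm10, TopHat, STAR 2.5 and HTSeq 0.6.1, in roles not given in the sources used here. Genes passing filterByExpr were scaled by TMM and tested over all 6 libraries by the robust quasi-likelihood method of edgeR 4.0.16 in R 4.3.3, adjusting over 13883 genes; 3 residual degrees of freedom remained. The model was checked on simulated data.

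The labels give the animal, so the libraries can be paired by mouse. The main model held the group means only and did not use this pairing, which entered as the replicate block among the alternatives. Deviations from group means correlated at 0.64 for the Ly6G-high pair, -0.04 for the T1-binding pair and -0.10 for Ly6G-low with T1-non-binding cells. Alternatives covered scaling, tool (limma 3.58.1 voom, DESeq2 1.42.0), filter, replicate block and leaving out each library. The members and gene lists were chosen with earlier results of these data known. Other genes were named by rule, per role the 2 smallest p-values, 1 of the other direction and the smallest p between the Ly6G-high groups, plus fixed adaptors, factors and markers. Depth limits cover counting error only, and p-values measure the spread between libraries of 2 mice. In all, 34490 gene IDs matched GENCODE M21 and 785 did not. A few genes that the naming rule or the likeness search picked are not reported here.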

Additional observations from a re-analysis of the deposited data

How the results depend on the processing

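The T1 comparison within Ly6G-high cells rested on the model. Against 0 genes, 0 members and 0 pathway genes called, DESeq2 called 203 genes and 6 pathway genes, testing without a filter on low counts called 71 genes and 1 pathway gene, and the replicate block on the 4 libraries compared called 3778 genes, 5 members and 40 pathway genes. The replicate block on all 6 libraries called 0 genes there, 6750 genes and 5 members for Ly6G-low over Ly6G-high T1-binding cells, and 6447 genes and 4 members for Ly6G-low over Ly6G-high T1-non-binding cells. Leaving out 1 library gave 0 genes in the T1 comparison throughout. For Ly6G-low over Ly6G-high T1-binding cells it gave 1972 to 6731 genes, 3 to 5 members and 30 to 59 pathway genes, against 5971, 5 and 56. For Ly6G-low over Ly6G-high T1-non-binding cells it gave 1527 to 6282 genes, 0 to 4 members and 24 to 51 pathway genes, against 5528, 3 and 48, and library totals gave 9145 genes. The lowest counts came without replicate 1 of the Ly6G-low cells, and members fell to 3 also without replicate 2 of the Ly6G-high T1-binding cells. Library totals called 3 members for Ly6G-low over Ly6G-high T1-binding cells.

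The split of calls moved with the scaling. Between Ly6G-low and Ly6G-high T1-binding cells, 2604 genes were higher and 3367 lower with TMM, 5208 and 2235 with library totals, and 3588 and 3096 with upper-quartile factors. Between Ly6G-low and T1-non-binding cells these were 2230 and 3298 with TMM, 7262 and 1883 with library totals, and 3786 and 3002 with upper-quartile factors.

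Directions turned for values near 0, given here as log2 fold changes. Leaving out 1 library put Tlr9 at -0.0067 to 1.06 and Mb21d1 at -0.033 to 0.49 in the T1 comparison, the lowest in both being without replicate 2 of the Ly6G-high T1-binding cells. For Ly6G-low over Ly6G-high T1-binding cells it put Mb21d1 at -0.27 to 0.21 (0.09 without replicate 1 of the Ly6G-low cells) and Irf3 at -0.000201 to 0.18. There, Mb21d1 also stood at 0.00097 with the replicate block, 0.55 with library totals, 0.16 with upper-quartile factors and 0.011 with limma-voom, and Tlr3 at 0.12 with library totals. Tmem173 over the T1-non-binding cells stood at 0.61 with library totals. The cause of these changes was not tested. Tmem173 also lost its call over the Ly6G-high T1-binding cells with upper-quartile factors (-0.46, adjusted p = 0.0963). Of the 28 other named genes called for Ly6G-low over Ly6G-high T1-binding cells, 17 kept their call in all 16 settings and 11 lost it in at least 1 of them, Banf1, Cdh1, Dhx9, Krt18, Lgmn, Lrrc8c, Myd88, Pld3, Siglech, Tbk1 and Ticam1, with no change of direction. With 2 libraries a group, small differences were not detectable, and larger ones also missed the test. Among these in the T1 comparison were Tlr7 (0.88, edgeR adjusted p = 0.387) and all 7 neutrophil genes (median -1.53). Tlr9, at 11 to 106 reads, was limited by its depth as well.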

Other observations

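Trex1, the exonuclease that clears cytosolic DNA upstream of cGAS, was listed with 0 reads in all 6 libraries. All 1147 of its exonic bases lie within exons of Atrip on the same strand in GENCODE M21, and how reads shared by overlapping genes were counted is not given in the sources used here, so its level is not known from these counts. The interferon gene Ifna4 had 0 reads in all 6 libraries as well.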
